A study of Mus musculus with 12 samples.

Results

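The genes described here are 43 mouse genes that drive or carry out DNA replication and cell division, chosen by symbol and grouped by role. They comprise 9 cyclins and kinases of the G1 and S phases, 9 genes of origin licensing and the replication fork, 4 of nucleotide supply, 16 of mitosis, 3 transcription factors and 2 inhibitors of cyclin-dependent kinases. A gene was tested where at least 1 of its probes had a detection p under 0.05 on at least 3 arrays, and its brightest such probe stood for it. By this rule 27 of the 43 genes were tested, among 9747 genes tested in all. Liver RNA of male C57BL/6 mice aged 8 weeks was hybridised to 12 Illumina bead arrays in 4 groups of 3. One group received XCT790 for 4 days and L-T3 on the last 3 of them, by daily intraperitoneal injection. Another received L-T3 (liothyronine, the active thyroid hormone) for 3 days, and one more received XCT790, an inverse agonist of the estrogen-related receptor ESRRA, for 4 days. For the control mice the label gives the injected compound as none and does not say whether a vehicle was injected, so an effect of injection cannot be told apart from that of the compounds in a comparison with control. Each array is labelled as a separate sample of its group, and nothing in the labels says that the 3 arrays of a group come from 3 mice. The p-values below therefore measure the spread between these samples, and each array is called a liver.

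Most hepatocytes of an adult liver rest outside the cell cycle and can re-enter it after injury or mitogenic signals. Entry begins with D-type cyclins, which activate CDK4 and CDK6 and thereby release E2F factors from RB proteins. E2F then switches on the genes of DNA synthesis. A later wave of genes for the spindle and chromosome segregation is controlled by the DREAM and MMB-FOXM1 complexes, whose targets often carry CCAAT boxes and cell cycle homology regions. CDKN1A (p21) opposes this sequence by inhibiting cyclin-dependent kinases. Thyroid hormone is a known mitogen for rodent hepatocytes, and its receptors bind DNA as transcription factors.

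The promoters of 6 genes past the threshold below are shown, 3 of mitosis (Cdc20, Plk1 and Bub1b), 2 of DNA synthesis (Mcm5 and Rrm2) and the inhibitor Cdkn1a, which had the largest difference with T3. They are the 250 bases before and 50 after the annotated start in RefSeq (build GRCm38.p6), and a promoter was given for 33 of the 43 genes. Capitals mark each match, on either strand, to an E2F-like motif (TTTNNCGC), a CCAAT box (CCAAT) or a cell cycle homology region (TTTGAA or TTCGAA). In Mcm5 a pair of E2F-like matches on opposite strands overlap.
Cdc20 promoter, chr4:118437294-118437593, minus strand: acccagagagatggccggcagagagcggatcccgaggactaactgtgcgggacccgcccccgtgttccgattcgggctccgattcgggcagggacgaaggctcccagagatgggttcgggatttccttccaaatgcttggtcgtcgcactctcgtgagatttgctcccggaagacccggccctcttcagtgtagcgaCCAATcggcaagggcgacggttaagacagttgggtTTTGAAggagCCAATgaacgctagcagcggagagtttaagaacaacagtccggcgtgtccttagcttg
Plk1 promoter, chr7:122159185-122159484, plus strand: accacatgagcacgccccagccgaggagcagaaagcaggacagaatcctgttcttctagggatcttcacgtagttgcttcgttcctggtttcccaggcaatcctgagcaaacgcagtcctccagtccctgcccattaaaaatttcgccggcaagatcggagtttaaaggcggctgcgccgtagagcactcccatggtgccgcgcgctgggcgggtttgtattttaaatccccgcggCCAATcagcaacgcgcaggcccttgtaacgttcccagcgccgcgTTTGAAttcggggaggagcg
Bub1b promoter, chr2:118597961-118598260, plus strand: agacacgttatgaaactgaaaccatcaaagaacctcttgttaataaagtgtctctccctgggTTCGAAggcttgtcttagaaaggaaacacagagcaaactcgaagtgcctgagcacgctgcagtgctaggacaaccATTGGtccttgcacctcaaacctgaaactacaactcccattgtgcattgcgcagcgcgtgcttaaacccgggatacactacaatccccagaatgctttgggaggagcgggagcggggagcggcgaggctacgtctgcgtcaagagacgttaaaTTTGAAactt
Mcm5 promoter, chr8:75109259-75109558, plus strand: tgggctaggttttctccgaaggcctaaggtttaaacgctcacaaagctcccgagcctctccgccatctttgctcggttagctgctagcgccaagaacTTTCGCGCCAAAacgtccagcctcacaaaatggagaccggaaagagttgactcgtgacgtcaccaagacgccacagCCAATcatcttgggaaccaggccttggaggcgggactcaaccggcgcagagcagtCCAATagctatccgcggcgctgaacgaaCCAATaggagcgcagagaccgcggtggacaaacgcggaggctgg
Rrm2 promoter, chr12:24708004-24708303, plus strand: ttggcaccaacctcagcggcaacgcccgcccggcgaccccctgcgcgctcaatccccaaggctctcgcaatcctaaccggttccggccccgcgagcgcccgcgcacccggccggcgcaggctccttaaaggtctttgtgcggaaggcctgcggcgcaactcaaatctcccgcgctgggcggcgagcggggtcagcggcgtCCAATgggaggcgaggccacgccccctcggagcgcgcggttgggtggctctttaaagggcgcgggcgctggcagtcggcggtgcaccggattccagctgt
Cdkn1a promoter, chr17:29090729-29091028, plus strand: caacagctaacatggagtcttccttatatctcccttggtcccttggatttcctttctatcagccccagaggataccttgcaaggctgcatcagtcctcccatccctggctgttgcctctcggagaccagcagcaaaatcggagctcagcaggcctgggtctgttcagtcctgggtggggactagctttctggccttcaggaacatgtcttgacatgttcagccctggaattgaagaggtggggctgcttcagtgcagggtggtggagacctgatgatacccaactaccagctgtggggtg

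Each of the 3 mitotic promoters held both a CCAAT box and a cell cycle homology region, Mcm5 held E2F-like matches and CCAAT boxes, and Rrm2 held 1 CCAAT box. The Cdkn1a promoter shown, and a further one annotated for the gene, held 0 matches to the motifs searched. Over the 36 promoters of the 33 genes, the E2F-like motif was present in 27.8%, against 5.17% of all 32851 promoters of that length. CCAAT boxes were present in 63.9% of these promoters, against 37.4% of all promoters. The homology region was present in 33.3%, against 19.2% of all. The sequence AAGGTCA, of the type bound by ESRRA and added after the values were seen, was present in 2.78% of these promoters and 4.72% of all. Its 1 match lay in a promoter of Ccnd3. These are matches of letters and not measured binding sites.

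Many of these genes were dim in liver. Of the 27 tested genes, 13 were detected on every array. Cdc20, Plk1 and Bub1b were detected on all 3 XCT790 plus T3 arrays and all 3 T3 arrays, but on 1, 0 and 1 of the 3 XCT790 arrays and on 3, 2 and 3 of the 3 control arrays. Cdk1, the kinase that triggers mitosis, was detected on 0 XCT790 plus T3 arrays, 3 T3 arrays, 0 XCT790 arrays and 1 control array. For 14 genes a probe was named but none passed the filter. In 13 of these no named probe was detected on any array, among them Ccna2, Cdc6, Mcm3, Bub1, Top2a, Kif11, Tpx2 and Myc. Cdkn1b, the inhibitor p27, was detected on 2 arrays. Ccnb1 and Mki67 were not analysed here. A gene that entered the test only through arrays of 1 group had to be brighter there, which applies to Cdk1 and the T3 group.

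**Figure D1:**
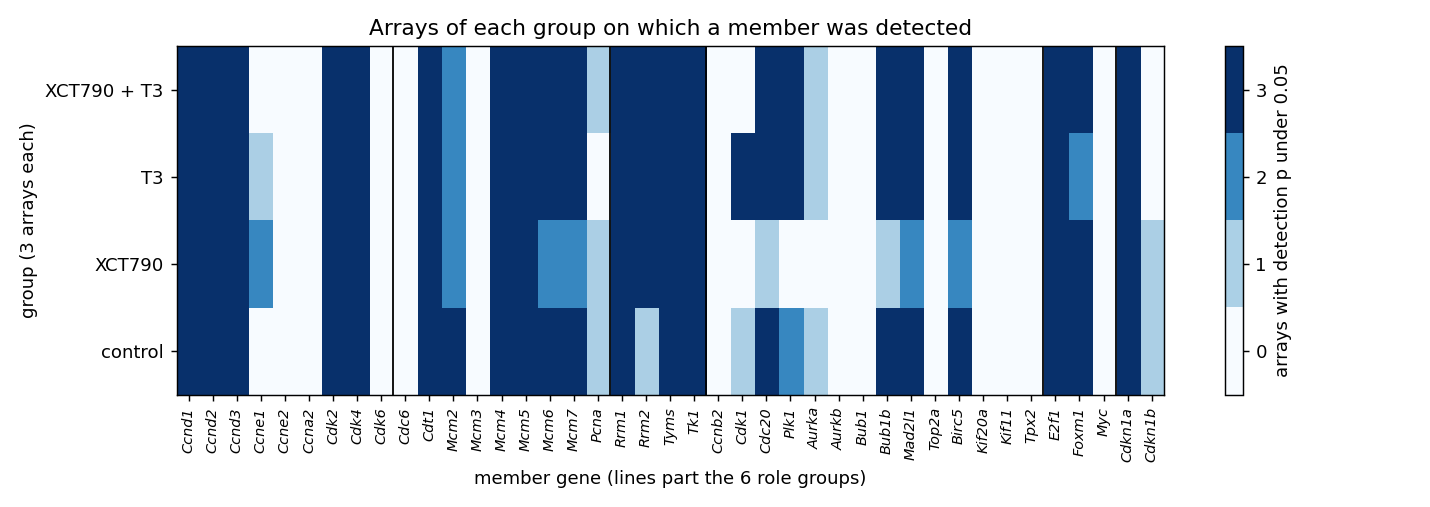
Number of arrays (0 to 3, colour scale) with a detection p under 0.05, for the 41 member genes with a named probe (columns, by role) in each group of 3 arrays (rows). In the mitosis block, the XCT790 row is lighter than the rows of both T3-treated groups for Cdc20, Plk1 and Bub1b, and 13 of the 41 columns are at 0 in every row.

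The arrays of a group correlated at 0.989 to 0.992 (Pearson's r of log2 intensity over tested genes), and summed raw intensities ran from 14568457 to 22343383 per array, with the highest on XCT790 array 3. Between 31.9% and 35.6% of probes were detected per array. Values below are normalised log2 intensities, differences are in log2 units, and each adjusted p is from limma with Benjamini-Hochberg adjustment over all 9747 genes and a threshold of 0.05. A difference is treated as a change only past that threshold. Of the 12 hepatocyte markers 11 were tested, and their summed intensity was 211075 to 215374 in XCT790 plus T3 livers, 210825 to 220090 in T3 livers, 206316 to 216362 in XCT790 livers and 215558 to 227405 in control livers. Whole liver was measured, so fewer cells of a type and less RNA per cell cannot be told apart.

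T3 alone changed 4 of the 27 genes, with 3 higher and 1 lower, where 16.1% of all genes tested changed (7.24% higher, 8.91% lower), and 9 had an unadjusted p under 0.05, as did 29.9% of all genes. The median difference of the 27 genes was 0.04, and of all genes -0.01. XCT790 alone also changed 4, with 2 higher and 2 lower, where 4.44% of all genes changed (2.29% higher, 2.15% lower), and 11 had an unadjusted p under 0.05, as did 17.9% of all genes. Their median was -0.20. T3 given to mice that also received XCT790 raised 7 and lowered 0, compared with XCT790 alone, where 15.2% of all genes changed (7.63% higher, 7.56% lower), and 13 had an unadjusted p under 0.05, as did 28.7% of all genes. Their median was 0.31. XCT790 given to mice that also received T3 changed 0, where 0.0923% of all genes changed in limma (0.0718% higher, 0.0205% lower). In that comparison 3 of the 27 (Cdk1, E2f1 and Foxm1) had an unadjusted p under 0.05, as did 12.7% of all genes. Cdk1 entered the test through the T3 arrays, so the filter favoured its lower level with XCT790 added. Both compounds together changed 6 against control, with 5 higher and 1 lower, where 18.7% of all genes changed (8.97% higher, 9.77% lower), and 8 had an unadjusted p under 0.05, as did 32.1% of all genes. The comparisons share arrays. The control arrays enter each comparison with control, and the 3 XCT790 arrays enter XCT790 against control and T3 added to XCT790 with opposite signs.

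**Figure D2:**
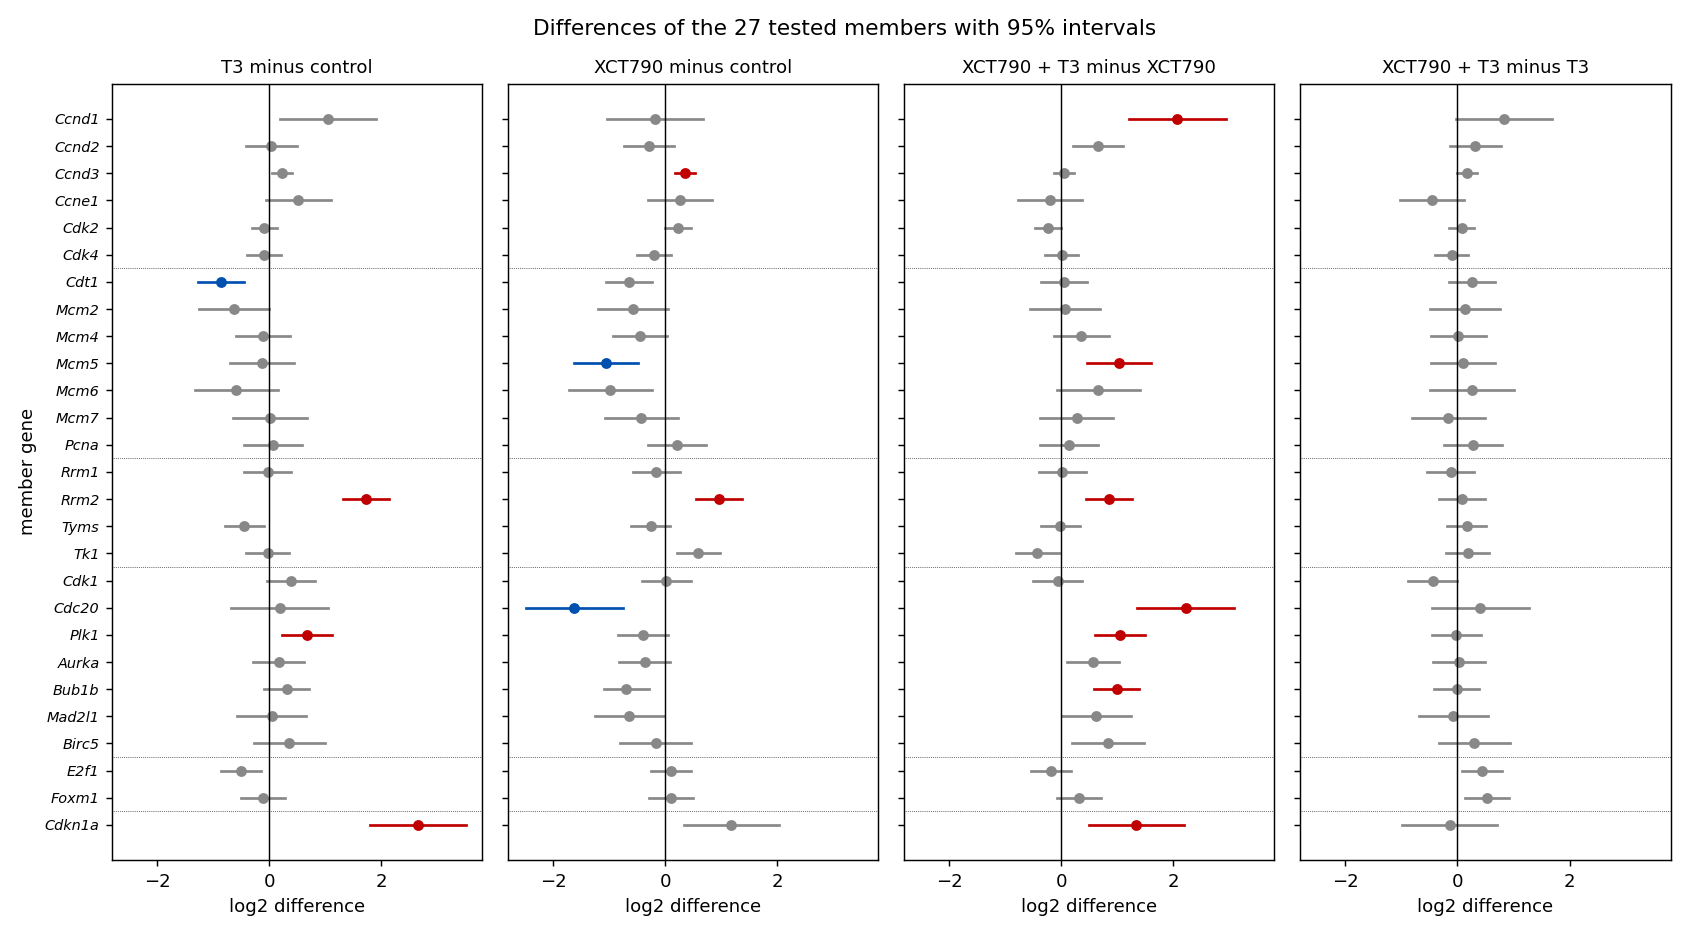
Log2 differences (points) with 95% intervals (lines) of the 27 tested genes, in 4 panels: T3 minus control, XCT790 minus control, XCT790 plus T3 minus XCT790, and XCT790 plus T3 minus T3. Red marks genes higher and blue genes lower past an adjusted p of 0.05, and grey the rest; 4, 4, 7 and 0 genes are coloured.

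Among the 6 tested G1 and S phase genes, Ccnd1 had the largest difference in each comparison that involved T3. It encodes cyclin D1, the mitogen-induced partner of CDK4 and CDK6 (chr7:144929931-144939831, GRCm38.p6). Its log2 intensity was 11.05, 11.73 and 12.56 in XCT790 plus T3 livers, 11.14, 10.09 and 11.61 in T3 livers, 10.04, 9.51 and 9.58 in XCT790 livers, and 10.14, 9.97 and 9.59 in control livers. All 3 livers given both compounds lay above all XCT790 and control livers, whereas 1 of the T3 livers lay within the control range. Against XCT790 alone, Ccnd1 rose by 2.07 (SE 0.39, 4.20-fold, adjusted p = 0.00427) with T3 added. Against control it rose by 1.88 with both compounds (3.68-fold, adjusted p = 0.0063). T3 alone differed from control by 1.05 (95% interval 0.19 to 1.90, adjusted p = 0.0941), which did not pass, and passed without T3 array 2 (1.47, adjusted p = 0.0227). All 3 kept Ccnd1 probes passed in the first 2 of these comparisons, and 1 of the 3 also passed for T3 alone (1.13, adjusted p = 0.046 over 14446 probes).

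The other D cyclins moved less. Ccnd3 (cyclin D3, chr17:47505051-47599689) measured 9.78, 9.82 and 9.74 in XCT790 plus T3 livers, 9.64, 9.56 and 9.62 in T3 livers, 9.72, 9.73 and 9.77 in XCT790 livers, and 9.43, 9.31 and 9.40 in control livers. Every treated liver lay above every control liver. Ccnd3 rose by 0.36 with XCT790 (SE 0.08, adjusted p = 0.0302) and by 0.40 with both compounds (adjusted p = 0.00547), while T3 alone differed from control by 0.23 (adjusted p = 0.0843). Over the mean of its kept probes neither call passed. The Ccnd3 differences were then 0.23 with both compounds (adjusted p = 0.208) and 0.13 with XCT790 (adjusted p = 0.647). Its second kept probe gave -0.10 with XCT790 (adjusted p = 0.864), and the XCT790 call was lost without any 1 control or XCT790 array (adjusted p up to 0.108). Ccnd2 (cyclin D2) averaged 6.90 ± 0.10 in XCT790 plus T3 livers and 6.25 ± 0.37 in XCT790 livers (SD, n = 3 each), a difference of 0.65 that fell short (adjusted p = 0.0513). Cdk2, the kinase of cyclin E, averaged 9.23 ± 0.07 in XCT790 plus T3 livers, 9.15 ± 0.08 in T3 livers, 9.47 ± 0.16 in XCT790 livers and 9.24 ± 0.07 in control livers. Cdk4, the kinase of the D cyclins, averaged 6.85 ± 0.22, 6.95 ± 0.20 and 6.85 ± 0.12 in XCT790 plus T3, T3 and XCT790 livers and 7.05 ± 0.10 in control livers. Both, and Ccne1 (cyclin E1), passed in none of the 5 comparisons of groups.

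The licensing genes load and activate the MCM helicase at origins, and of these Cdt1 and Mcm5 passed the threshold in some comparisons. The means of Cdt1, Mcm2, Mcm4, Mcm5 and Mcm6 were below control in every treated group, and those of Mcm7 and Pcna were not. Cdt1, the loading factor for MCM (chr8:122568015-122573130), measured 6.05, 6.30 and 6.86 in XCT790 plus T3 livers, 6.20, 6.10 and 6.15 in T3 livers, 6.54, 6.11 and 6.42 in XCT790 livers, and 7.14, 6.79 and 7.08 in control livers. The T3 and XCT790 livers all lay below the control livers, and 1 liver given both compounds overlapped them. Cdt1 fell by 0.86 with T3 (SE 0.19, 1.81-fold lower, adjusted p = 0.00797) and by 0.60 with both compounds (adjusted p = 0.0429). With XCT790 the difference was -0.65 (adjusted p = 0.0751). Without background correction the differences were -0.52 with T3 and -0.37 with both compounds. The call with both compounds was lost in 10 of 21 alternative settings, including without control array 1 (adjusted p = 0.117).

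Mcm5, a subunit of the helicase (chr8:75109468-75128439), measured 7.19, 6.49 and 7.43 in XCT790 plus T3 livers, 7.48, 6.79 and 6.53 in T3 livers, 5.87, 6.05 and 6.08 in XCT790 livers, and 7.09, 6.78 and 7.30 in control livers. The 3 XCT790 livers lay below all 9 others. Mcm5 fell by 1.06 with XCT790 (SE 0.26, 2.08-fold lower, adjusted p = 0.0437). With T3 added to XCT790 it rose by 1.03 (2.05-fold, adjusted p = 0.0197). Without background correction these differences were -0.63 and 0.63. Against control, both compounds gave -0.02 (adjusted p = 0.969). The XCT790 call was lost without any 1 control or XCT790 array (adjusted p 0.0633 to 0.146), and the T3 call without XCT790 array 1 or 2 or either of XCT790 plus T3 arrays 1 and 3 (adjusted p 0.0516 to 0.0773).

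The other helicase subunits did not pass by their brightest probe. Mcm6 measured 6.40, 5.84 and 6.57 in XCT790 plus T3 livers, 6.76, 5.56 and 5.71 in T3 livers, 5.18, 5.48 and 6.17 in XCT790 livers, and 6.34, 6.39 and 7.05 in control livers. Its XCT790 livers all lay below the control livers but overlapped both groups given T3, with -0.98 for XCT790 against control (95% interval -1.72 to -0.24, adjusted p = 0.14). Mcm6 passed for XCT790 over the mean of its 3 kept probes (-0.83, adjusted p = 0.0429). One of its other probes gave -0.64 with XCT790 (adjusted p = 0.0426) and -0.59 with T3 (adjusted p = 0.0222), both past the threshold over 14446 probes. Mcm2 measured 5.25, 4.87 and 6.16 in XCT790 plus T3 livers, 5.55, 5.04 and 5.30 in T3 livers, 5.09, 5.60 and 5.37 in XCT790 livers, and 5.66, 5.84 and 6.28 in control livers. The T3 and XCT790 livers lay below the control livers, by -0.63 and -0.57, and neither difference passed (adjusted p = 0.162 and 0.324). Mcm4 averaged 7.87 ± 0.58 in XCT790 plus T3 livers, 7.85 ± 0.10 in T3 livers, 7.51 ± 0.13 in XCT790 livers and 7.96 ± 0.17 in control livers, and Mcm7 6.08 ± 0.42, 6.24 ± 0.24, 5.80 ± 0.51 and 6.23 ± 0.50 in the same groups (SD, n = 3 each). For XCT790 against control, 6 of the 7 tested genes of licensing and the fork had a negative difference (median -0.57, against -0.01 for all genes), and with T3 added to XCT790 all 7 had a positive one (median 0.28). Pcna, the sliding clamp of the fork, measured 5.49, 4.80 and 5.09 in XCT790 plus T3 livers, 5.00, 4.89 and 4.63 in T3 livers, 4.64, 5.46 and 4.88 in XCT790 livers, and 4.62, 5.17 and 4.55 in control livers. It was detected on 3 arrays in all, the 4 groups overlapped, and none of its differences passed.

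Rrm2, the small subunit of ribonucleotide reductase that limits deoxynucleotide supply (chr12:24708254-24714146), was higher in all treated groups. It measured 6.54, 7.13 and 6.75 in XCT790 plus T3 livers, 6.74, 6.91 and 6.53 in T3 livers, 6.27, 5.79 and 5.81 in XCT790 livers, and 5.24, 5.03 and 4.73 in control livers. By its brightest probe, the groups fell into a clear order. Every liver that received T3 lay above every XCT790 liver, and every XCT790 liver above every control liver. Rrm2 was detected on 1 of the 3 control arrays, so its control level lies near background and no fold against control is given. It rose by 1.73 with T3 (SE 0.19, adjusted p = 7.53e-05), by 0.96 with XCT790 (adjusted p = 0.014) and by 1.81 with both (adjusted p = 4.38e-05). Without background correction these differences were 0.89, 0.45 and 0.94. Leaving out control array 3 ended the XCT790 call (adjusted p = 0.0569), as did leaving out the first XCT790 array (adjusted p = 0.0658). Added to XCT790, T3 raised it by 0.85 (1.80-fold, adjusted p = 0.01), or by 0.49 without background correction. The second kept probe rose by 1.66 with T3 and differed by 0.44 with XCT790 (adjusted p = 0.3). With T3 added to XCT790 that probe differed by 0.60, which did not pass (adjusted p = 0.0735).

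The other genes of nucleotide supply did not pass in any of the 5 comparisons of groups. Rrm1, the large reductase subunit, differed from control by -0.14 with both compounds, -0.03 with T3 and -0.16 with XCT790. Tyms, which makes thymidylate, averaged 6.83 ± 0.27 in T3 livers and 7.27 ± 0.20 in control livers (SD, n = 3 each; adjusted p = 0.0783). Tk1, the thymidine kinase of the salvage route, measured 8.81, 8.79 and 8.36 in XCT790 livers, against 8.21, 8.13 and 7.85 in control livers. Every XCT790 liver lay above every control liver. The difference was 0.59 (adjusted p = 0.0838), and it passed in 5 of 21 alternative settings, among them the deposited matrix (adjusted p = 0.0384).

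T3 added to XCT790 raised 3 of the 7 tested mitotic members, Cdc20, Plk1 and Bub1b, where 7.63% of all genes rose. Against control, both compounds raised only Plk1 of the 7 past the threshold. In that comparison Cdc20 differed by 0.60 (adjusted p = 0.333) and Bub1b by 0.30 (adjusted p = 0.3). Cdc20, the activator of the anaphase-promoting complex (chr4:118432901-118437343), measured 6.99, 6.74 and 7.75 in XCT790 plus T3 livers, 7.86, 6.02 and 6.39 in T3 livers, 4.83, 4.80 and 5.20 in XCT790 livers, and 6.85, 6.56 and 6.29 in control livers. The 3 XCT790 livers lay below all 9 others, and T3 array 1 was the highest of all. Cdc20 was detected on 1 of the 3 XCT790 arrays, so its level there lies near background and no fold is given. It fell by 1.63 with XCT790 (SE 0.40, adjusted p = 0.0404) and, with T3 added to XCT790, rose by 2.22 (SE 0.40, adjusted p = 0.00288). Without background correction these differences were -0.82 and 1.22. The XCT790 call was lost in 12 of 21 alternative settings, including without any 1 control or XCT790 array (adjusted p 0.0607 to 0.13) and over the mean of its 3 kept probes (-1.05, adjusted p = 0.127). The other 2 kept probes gave -0.75 and -0.76 for XCT790, uncalled, and 0.94 and 1.11 with T3 added, of which 1.11 passed (adjusted p = 0.0202).

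Plk1, the polo-like kinase of mitotic entry (chr7:122159435-122169884), measured 5.81, 5.85 and 6.26 in XCT790 plus T3 livers, 6.46, 5.87 and 5.64 in T3 livers, 4.92, 4.77 and 5.09 in XCT790 livers, and 5.56, 5.27 and 5.12 in control livers. Every liver that received T3 lay above every liver that did not. Plk1 was not detected in XCT790 livers, so the rise with T3 added to XCT790 is given as at least 1.65-fold (difference of measured means 1.05, or 0.49 without background correction, adjusted p = 0.00491). A bound of this kind sets the mean of the bright group against the lowest signal counted as detected. Plk1 also rose by 0.67 with T3 (SE 0.20, adjusted p = 0.0414) and by 0.66 with both compounds against control (adjusted p = 0.0422). These calls against control were lost in 11 and 12 of 21 alternative settings, with adjusted p up to 0.134 for T3 (0.44 without T3 array 1, and 0.32 without background correction) and up to 0.146 for both compounds (0.51 without XCT790 plus T3 array 3).

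Bub1b, the checkpoint kinase-like protein BUBR1 (chr2:118598202-118641592), measured 6.06, 6.05 and 6.34 in XCT790 plus T3 livers, 6.54, 5.85 and 6.10 in T3 livers, 4.89, 5.47 and 5.13 in XCT790 livers, and 5.79, 5.98 and 5.79 in control livers. Again all 3 XCT790 livers lay below the other 9. Bub1b was detected on 1 of these 3 arrays. With T3 added to XCT790 it rose by 0.99 (SE 0.18, adjusted p = 0.00378), a call that held in all 21 alternative settings, while its size was 0.47 without background correction. XCT790 alone differed from control by -0.69 (adjusted p = 0.0555), and passed in 4 of 21 alternative settings.

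**Figure D3:**
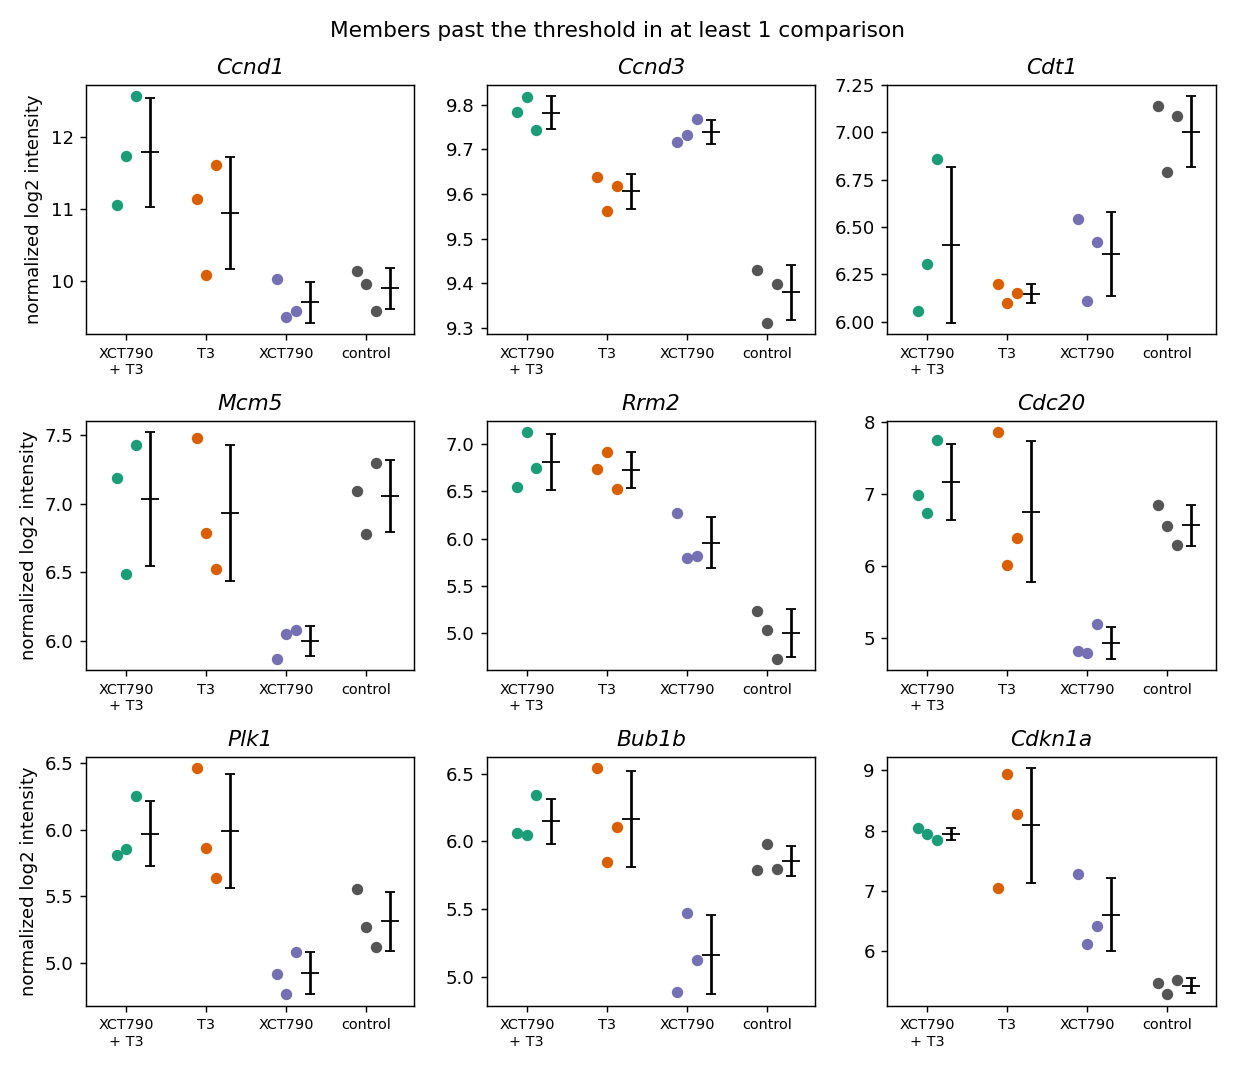
Normalised log2 intensity on each of the 12 arrays (points, 3 per group) for the 9 genes past the threshold in at least 1 comparison, with the group mean and SD (black). In Mcm5, Cdc20 and Bub1b the 3 XCT790 points lie below all other points, and in Ccnd3, Rrm2 and Cdkn1a the 3 control points do.

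The remaining 4 tested mitotic members did not pass in any comparison. Cdk1 measured 5.18, 4.68 and 5.03 in XCT790 plus T3 livers, 5.61, 5.28 and 5.31 in T3 livers, 5.15, 5.17 and 4.77 in XCT790 livers, and 5.47, 4.74 and 4.83 in control livers. Its T3 livers, through which it passed the filter, lay above both XCT790 groups and overlapped control. Aurka, the spindle-pole kinase Aurora A, averaged 5.30 ± 0.31 in XCT790 plus T3 livers and 4.74 ± 0.25 in XCT790 livers (SD, n = 3 each), but was detected on 3 arrays in all. Birc5 (survivin), which anchors Aurora B to centromeres, averaged 6.28 ± 0.40 in XCT790 plus T3 livers and 5.45 ± 0.15 in XCT790 livers (adjusted p = 0.0787). Mad2l1, the checkpoint inhibitor of CDC20, averaged 6.17 ± 0.41 in XCT790 plus T3 livers and 5.54 ± 0.60 in XCT790 livers (adjusted p = 0.17). The summed intensity of Kupffer cell markers also lay higher in XCT790 plus T3 livers (3636 to 6323) than in XCT790 livers (2501 to 3041), and its part in these differences was not tested. Of the 7 mitotic members tested, the XCT790 group had the lowest mean of the 4 groups in 6. Over all 27 genes it had the lowest mean in 14, T3 in 7, control in 5 and XCT790 plus T3 in 1. How often each group was the lowest over all genes tested was not counted.

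Of the transcription factors, E2f1 averaged 6.44 ± 0.29 in T3 livers and 6.95 ± 0.19 in control livers (SD, n = 3 each), a difference of -0.51 (adjusted p = 0.0542) that passed in 7 of 21 alternative settings. Foxm1, the activator of late cell cycle genes, averaged 5.89 ± 0.42 in XCT790 plus T3 livers and 5.36 ± 0.20 in T3 livers, and none of its differences passed.

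The inhibitor Cdkn1a (p21, chr17:29090979-29100722) had the largest rise with T3 of the 27 genes. It measured 8.05, 7.95 and 7.84 in XCT790 plus T3 livers, 7.06, 8.94 and 8.27 in T3 livers, 7.29, 6.12 and 6.42 in XCT790 livers, and 5.48, 5.29 and 5.53 in control livers. By this brightest probe, all 9 treated livers lay above the 3 control livers. Cdkn1a rose by 2.65 with T3 (SE 0.39, 6.29-fold, adjusted p = 0.000687) and by 2.51 with both compounds (5.71-fold, adjusted p = 0.000906), and both calls held in all alternative settings, with 1.70 for T3 and 1.56 for both compounds without background correction. XCT790 alone differed from control by 1.18 (95% interval 0.33 to 2.03, adjusted p = 0.12). With T3 added to XCT790, Cdkn1a rose by 1.34 (2.53-fold, adjusted p = 0.0377), a call lost in 10 of 21 alternative settings. It was lost over the mean of its kept probes (0.96, adjusted p = 0.0596). Leaving out any 1 XCT790 plus T3 array or XCT790 array 2 or 3 also ended it (adjusted p 0.0751 to 0.135). The 3 kept Cdkn1a probes gave 2.65, 1.57 and 1.20 with T3, of which 2 passed. With XCT790 alone the same probes gave 1.18, 0.28 (adjusted p = 0.561) and 0.16 (adjusted p = 0.911), and none passed.

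Whether T3 acted differently with and without XCT790 was tested for each gene as the difference between both T3 responses. None of the 27 genes passed in limma, where 0.462% of all genes did, and 7 had an unadjusted p under 0.05, where 12.1% of all genes did. The largest was Cdc20, for which T3 gave 2.22 with XCT790 and 0.19 without it (difference 2.03, 95% interval 0.81 to 3.25, adjusted p = 0.143). It passed without T3 array 1, the array with the highest Cdc20 (difference 2.58, adjusted p = 0.0113). Mcm5 gave 1.03 and -0.12 (difference 1.16, adjusted p = 0.214), Mcm6 0.66 and -0.58 (1.24, adjusted p = 0.326), Cdt1 0.05 and -0.86 (0.90, adjusted p = 0.171) and Bub1b 0.99 and 0.31 (0.68, adjusted p = 0.318).

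In the opposite direction, Cdkn1a gave 1.34 with XCT790 and 2.65 without it (difference -1.32, adjusted p = 0.362), and Rrm2 gave 0.85 and 1.73 (difference -0.88, adjusted p = 0.19). Rrm2 passed when the mean over its kept probes was used (difference -0.97, adjusted p = 0.0393). Between XCT790 plus T3 and T3 livers, the difference was 0.08 for Rrm2 (95% interval -0.33 to 0.49), -0.14 for Cdkn1a (-0.99 to 0.71), 0.41 for Cdc20 (-0.46 to 1.27) and 0.83 for Ccnd1 (-0.02 to 1.69).

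**Figure D4:**
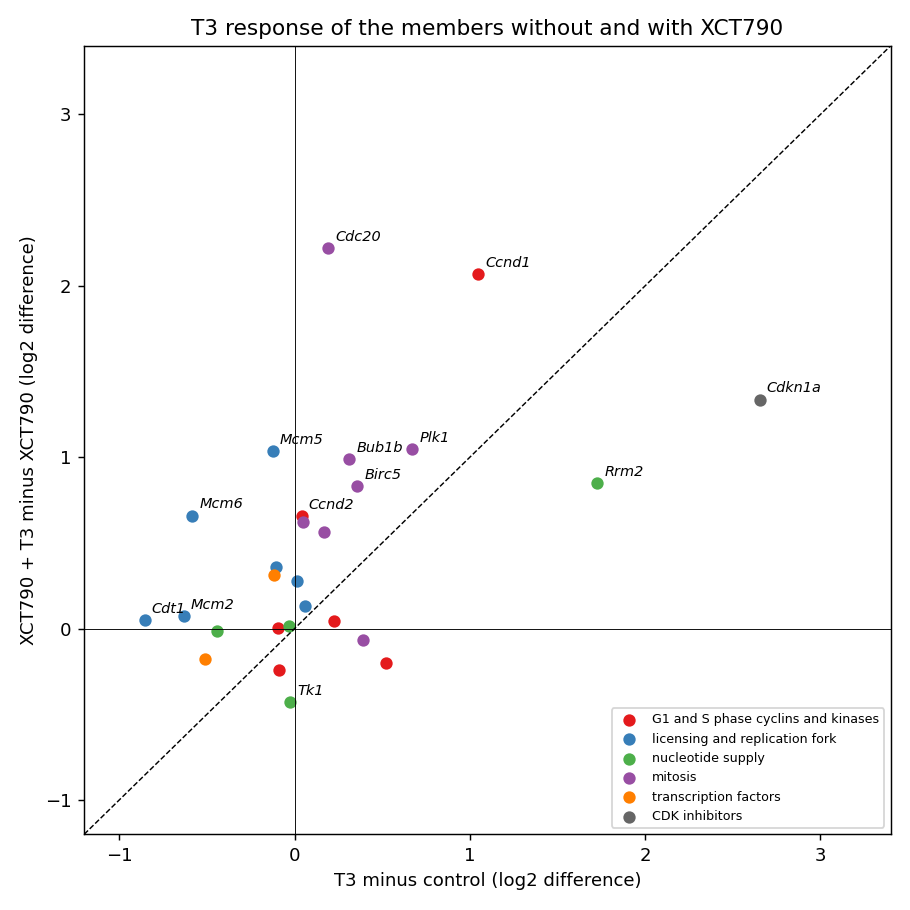
Log2 difference made by T3 in mice given XCT790 (vertical) against that made by T3 without XCT790 (horizontal) for the 27 tested genes, coloured by role, with the line of equality dashed. Cdc20, Ccnd1, Mcm5 and Mcm6 lie above the line and Cdkn1a and Rrm2 below it; no distance from the line passed the test after adjustment.

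A wider set of 226 genes of replication, mitosis and cell cycle control was examined in the same fit, of which 143 were tested. T3 raised 8 and lowered 18 of them against control, XCT790 raised 1 and lowered 2, and T3 added to XCT790 raised 17 and lowered 11. These are 18.2%, 2.10% and 19.6% of the 143, against 16.1%, 4.44% and 15.2% of all genes. In the list of the mitotic apparatus, 21 of 52 genes were tested. T3 added to XCT790 raised 8 of these 21 (38.1%, against 7.63% of all genes) and lowered 0 (median 0.30, against 0.00 for all genes), while XCT790 alone called 0, with 8 at an unadjusted p under 0.05 and a median of -0.24. Against control, T3 alone raised 2 and lowered 1 of the 21 (14.3%, against 16.1% of all genes). Both compounds raised 3 and lowered 1 against control (19%, against 18.7% of all genes). Prc1, which bundles the central spindle, measured 7.07, 6.78 and 7.56 in XCT790 plus T3 livers, 7.86, 6.63 and 6.27 in T3 livers, 4.88, 5.06 and 5.23 in XCT790 livers, and 6.28, 6.19 and 5.91 in control livers. As with Cdc20, the XCT790 livers lay below the other 9. Prc1, detected on 1 of the 3 XCT790 arrays, rose by 2.08 with T3 added to XCT790 (SE 0.33, adjusted p = 0.00139), or by 1.13 without background correction. Cdca8 (borealin) and the mitotic kinase Pbk, neither detected in XCT790 livers, rose at least 1.98-fold (adjusted p = 0.00317) and at least 1.57-fold (adjusted p = 0.0021). Cdkn3, a phosphatase that acts on cyclin-dependent kinases, was also detected on 1 of the 3 XCT790 arrays and rose by 1.45 (adjusted p = 0.0108), or by 0.74 without background correction.

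Of the 28 mitotic genes in both lists, the XCT790 mean was below the control mean in 21 and the lowest of the 4 groups in 19. Over all 9747 genes tested, the XCT790 mean was below the control mean in 5033, and how often it was the lowest of the 4 groups was not counted. These are counts of means, and 1 of the 28 passed for XCT790 against control.

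**Figure D5:**
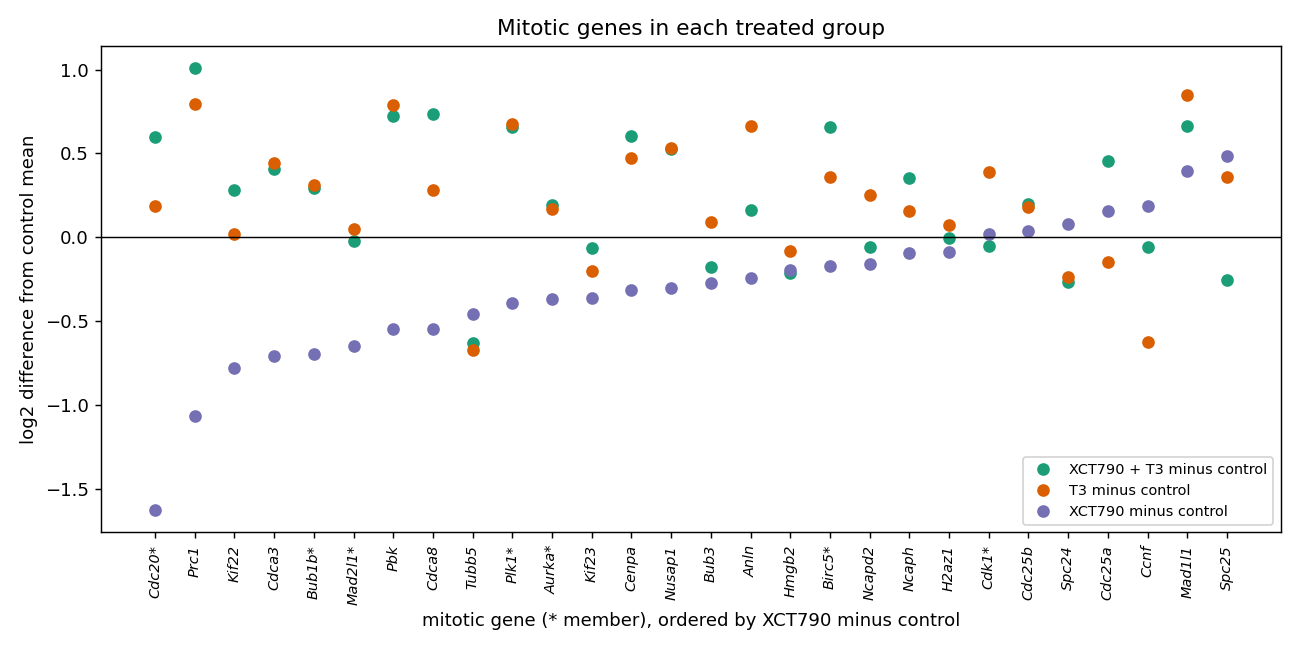
Log2 difference from the control mean for the 28 tested mitotic genes, ordered by XCT790 minus control, with XCT790 plus T3 (green), T3 (orange) and XCT790 (purple) as points and an asterisk for the 7 members. XCT790 lies below 0 in 21 genes and below both other points and 0 in 19. Over all 9747 genes tested, 5033 had an XCT790 mean below control.

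Genes of the origin and the polymerases were mostly lower where T3 changed them, with 1 higher (7.24% of all genes were higher) and 9 lower (8.91% of all genes were lower) of 35 tested, and a median of -0.23. With T3 added to XCT790, 2 were higher and 4 lower (17.1% of the 35, against 15.2% of all genes), with a median of -0.07. Mcm10, which links the helicase to DNA polymerase alpha, measured 10.18, 10.04 and 10.62 in XCT790 plus T3 livers, 10.81, 10.68 and 10.87 in T3 livers, 12.21, 12.47 and 12.10 in XCT790 livers, and 12.46, 12.69 and 12.54 in control livers. Livers with and without T3 did not overlap. Mcm10 fell by 1.78 with T3 (SE 0.15, adjusted p = 9.37e-06), by 1.98 with T3 added to XCT790 (adjusted p = 3.78e-06) and by 2.28 with both compounds (adjusted p = 1.13e-06). Of the 4 probes annotated to Mcm10, 2 were detected on all 12 arrays and 2 on 0, so whether the bright probes report Mcm10 mRNA is not settled and these falls are those of the probe.

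Pole4, a small subunit of DNA polymerase epsilon, rose by 1.08 with T3 (adjusted p = 1.95e-05), by 0.50 with XCT790 (adjusted p = 0.0152) and by 1.37 with both (adjusted p = 2.58e-06). The XCT790 call was lost in 3 of 21 settings (adjusted p up to 0.0618). Gins1, of the helicase complex, fell by 0.61 with T3 (adjusted p = 0.00386), and Rnaseh2a, which removes RNA from DNA, fell by 0.95 with T3 added to XCT790 (adjusted p = 0.000312). Uhrf1, the partner of the maintenance methyltransferase, measured 6.05, 5.68 and 6.54 in XCT790 plus T3 livers, 5.82, 6.18 and 5.90 in T3 livers, 4.71, 4.48 and 4.96 in XCT790 livers, and 5.57, 5.63 and 5.75 in control livers. It was detected on 0 XCT790 arrays and on all 9 others. It was at least 1.32-fold lower with XCT790 than in control (adjusted p = 0.0199), a call lost in 4 of 21 alternative settings (adjusted p up to 0.0807 without XCT790 array 2), and at least 1.79-fold higher with T3 added (adjusted p = 0.000628). E2f2, an activating E2F detected on 1 T3, 1 XCT790 and 3 control arrays, fell by 0.86 with T3 (adjusted p = 0.0121) and by 0.85 with XCT790 (adjusted p = 0.0363), the XCT790 call being lost in 7 of 20 settings (adjusted p up to 0.134 without XCT790 array 1).

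Markers of Kupffer cells, the liver's resident macrophages, moved with T3. Over all genes tested, 7.24% rose with T3, 7.63% with T3 added to XCT790, 8.97% with both compounds against control and 2.29% with XCT790. Falls made up 8.91% with T3 and 7.56% with T3 added to XCT790. Of 12 Kupffer cell markers 10 were tested. Of these, 7 rose with T3, 6 with T3 added to XCT790, 3 with both compounds against control and 0 with XCT790. Their summed intensity was 3636 to 6323 in XCT790 plus T3 livers, 5176 to 6269 in T3 livers, 2501 to 3041 in XCT790 livers and 2520 to 4321 in control livers. Cd163, a scavenger receptor, rose by 1.41 with T3 (adjusted p = 0.0025) and by 1.00 with T3 added to XCT790 (adjusted p = 0.0192). Of 12 lymphocyte markers 1 was tested and of 10 neutrophil and monocyte markers 2, and the rest did not pass the filter. Of 12 endothelial markers 11 were tested, and 0 rose with T3 in limma (3 at an unadjusted p under 0.05) and 1 with T3 added to XCT790. Of 8 erythroid markers 5 were tested, and 1 fell with T3 and 2 with T3 added to XCT790. Of 6 cholangiocyte markers 2 were tested, of which Sox9 fell by 0.98 with T3 (adjusted p = 0.00533). Of 10 stellate cell markers 7 were tested, and 0 were called in any of the 5 comparisons of groups. The part of these cells in the cell cycle values was not tested.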

How the data were processed

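Per the labels, liver RNA was amplified to biotinylated cRNA and hybridised to Illumina bead arrays. The authors deposited an intensity and a detection p-value for each of 45281 probes on each of 12 arrays, not normalised, and a matrix of processed intensity, for which the submitters' processing notes name Partek 6.6. The genome build was not given in the sources used. Of the probes, 34885 carried 1 gene symbol in the platform annotation, 18 several and 10378 none. From the intensities, normexp background correction with an offset of 16, quantile normalisation and log2 were computed with limma 3.58.1 in R 4.3.3. The detection filter left 17218 probes, and the brightest named probe stood for each gene. Levels of different genes were not compared, as probes differ in response. lmFit and eBayes were run over all 12 arrays, two-sided, with Benjamini-Hochberg adjustment over 9747 genes. With 3 arrays a group, their number limits the precision. The fit was tested on simulated data.

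The genes, lists and motifs were chosen with earlier results of these data known. All member genes may be named, with array values for those past the threshold and for Cdk1, Mcm2, Mcm6 and Pcna. From each wider list, up to 3 genes past the threshold with the lowest p were named per comparison. Array values of wider genes, Uhrf1 for T3 added to XCT790, and the ESRRA motif were chosen after values were seen. Fold bounds use group means of normalised values. Alternatives covered background correction, scaling, the deposited matrix, the probe filter, the probe chosen, a replicate block, the arrays in the fit and leaving out each array.  Gene positions and promoters are from RefSeq on GRCm38.p6.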

Additional observations from a re-analysis of the deposited data

How the results depend on the processing

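The 21 called and 30 uncalled member results at an unadjusted p under 0.05, and the 57 calls of wider genes, kept their direction under every alternative run. Of the 21 member calls, 11 passed under all alternatives, and of the 30 results without a call, 15 stayed without one. Of 57 calls of wider genes, whose alternatives were chosen after seeing the data, 29 passed under all. The number of members called was 4 for T3 against control (3 to 6 over all alternatives), 7 for T3 added to XCT790 (5 to 8), 6 for both compounds (4 to 6) and 0 for XCT790 added to T3 (0 throughout). The count for XCT790 against control, 4, became 2 with no filter on dim probes and ran from 0 to 6 when 1 array was left out, the lowest without control array 3 or XCT790 array 1. The cause was not tested. The interaction count, 0, became 1 (Rrm2) with the mean over the kept probes and ran from 0 to 1 when 1 array was left out, the 1 being Cdc20 without T3 array 1. Same-numbered arrays of different groups did not deviate together (correlations -0.13 to 0.13 over 18 pairs). With 3 arrays a group this cannot exclude that the numbers pair the samples, which the labels do not say. With the replicate number as a block, the counts were 4 for T3, 4 for XCT790, 7 for T3 added to XCT790, 0 for XCT790 added to T3, 5 for both compounds and 0 for the interaction. Under the block Plk1 with T3 (adjusted p = 0.0509), Ccnd3 with XCT790 (0.0571) Plk1 with both compounds (0.052) and Cdkn1a with T3 added to XCT790 (0.0652) did not pass, while E2f1 with T3 (0.045) and Tk1 with XCT790 (0.0201) and with T3 added to XCT790 (0.0301, lower) did. Without background correction the called differences of Rrm2, Cdc20, Plk1 and Bub1b were 0.31 to 1.22 in size, against 0.66 to 2.22 with it, while Ccnd1 with T3 added to XCT790 was 1.99 against 2.07. Signal over background limits dim genes, among them Plk1, Cdk1, Aurka, Pcna and Ccne1, detected on 8, 4, 3, 3 and 3 of the 12 arrays.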

Other observations

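Several growth regulators outside the cell cycle machinery also differed. Mycl, a member of the MYC family, measured 7.80, 7.60 and 7.46 in XCT790 plus T3 livers, 6.60, 6.41 and 6.09 in T3 livers, 7.76, 7.98 and 8.04 in XCT790 livers, and 7.59, 7.35 and 7.26 in control livers. The T3 livers lay below the other 9. Mycl fell by 1.03 with T3 (SE 0.15, adjusted p = 0.000612) and, in mice given T3, rose by 1.25 with XCT790 added (SE 0.15, adjusted p = 0.00752), as 1 of 9 genes past the threshold in that comparison. The second call was lost with only both groups compared in the fit (adjusted p = 0.0929) and without XCT790 plus T3 array 1 (adjusted p = 0.0504). The immediate early gene Jun rose by 1.25 with T3 (adjusted p = 0.00354) and by 0.91 with both compounds (adjusted p = 0.0195), the call with both being lost in 3 of 21 settings (adjusted p up to 0.0718). The antiproliferative genes Btg1 and Tob1 fell by 0.82 and 0.93 with T3 (adjusted p = 0.000325 and 0.00552), while Cdkn1a rose. Of the 16 tested genes of the p53 pathway and DNA damage, 1 rose and 2 fell with T3 (18.8%, against 16.1% of all genes). With T3 added to XCT790, 3 rose and 2 fell (31.2%, against 15.2% of all genes). Both compounds raised 2 and lowered 2 against control (25%, against 18.7% of all genes). With XCT790, 0 were called, against 4.44% of all genes, and 2 had an unadjusted p under 0.05, as did 17.9% of all genes.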
